A study of Homo sapiens with 12 samples.

Results

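The 35 genes described here code for enzymes and regulators of cholesterol and lipid synthesis. They were taken by symbol from a count table of 56638 genes, and all 35 were found and tested. The cells were NT2/D1, pluripotent human embryonal carcinoma cells grown in medium with fetal calf serum. They carried either a CRISPR/Cas9 control or a CRISPR/Cas9 knockout of PRMT6, an arginine methyltransferase that acts on histones and other proteins. Each genotype was left untreated or kept for 3 days in 1 µM ATRA (all-trans retinoic acid), which makes these cells differentiate. The 4 groups held 3 libraries each, 12 in all. The sample titles name 1 knockout line, and nothing in the labels says whether the libraries of a group are separate cultures. The p-values thus rest on spread among libraries that may be technical.

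Cells build cholesterol from acetyl-CoA through mevalonate, farnesyl diphosphate, squalene and lanosterol. The transcription factors of the SREBP family, made from SREBF1 and SREBF2, switch on most of these enzymes and those of fatty acid synthesis. When sterols are plentiful, the INSIG proteins hold SREBP and its escort SCAP in the endoplasmic reticulum, and the genes are turned down together. Liver X receptors (LXR) also answer plentiful sterols, and switch on sterol export through ABCA1 and ABCG1 and the ubiquitin ligase MYLIP.

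SREBPs bind DNA beside the factors NF-Y, which recognises CCAAT, and Sp1, so these promoters were read first. RefSeq promoters (GRCh38.p14, from 250 bases before to 50 bases after the start) matched 30 of the 35 genes. ACAT2, FDFT1, SQLE, FASN and ABCG1 had none. CCAAT, on either strand, stood in 21 of 30 promoters (70%), against 42.5% of the 11645 promoters of genes tested. It was present in 8 of 8 promoters of genes that were higher in the untreated knockout by the test below, in 5 of 7 of those that were lower, and in 8 of 15 of the others. The SREBP motif TCACCCCAC stood in 1 of 30, that of SREBF2 itself, against 0.593% of promoters of genes tested, and allowing any base in its middle (TCACNCCAC) added no other gene of the set (1.55% of promoters of genes tested). The Sp1 letters GGGCGG stood in 29 of 30 (74.7% of promoters of genes tested) and the E-box CACGTG in 5 of 30 (12%). These are matches of letters within a fixed window, and overlapping matches were each counted.

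The upstream stretches shown next are those of 2 genes that were lower in the knockout, MSMO1 and HMGCS1, and of 3 that were higher, MVK, NSDHL and MVD, with CCAAT on either strand in capitals, and the stretch of SREBF2 with the SREBP motif in capitals. They come from RefSeq on GRCh38.p14, 5′ to 3′ on the gene's strand: MSMO1 at chr4:165327464-165327659 (plus strand), HMGCS1 at chr5:43313312-43313356 (minus), MVK at chr12:109573581-109573772 (plus), NSDHL at chrX:152830815-152830966 (plus), MVD at chr16:88663162-88663270 (minus) and SREBF2 at chr22:41832962-41832990 (plus).
MSMO1: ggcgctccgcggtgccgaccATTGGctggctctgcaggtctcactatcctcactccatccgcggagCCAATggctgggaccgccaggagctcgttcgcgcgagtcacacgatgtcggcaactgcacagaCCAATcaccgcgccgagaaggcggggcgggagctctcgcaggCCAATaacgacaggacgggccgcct
HMGCS1: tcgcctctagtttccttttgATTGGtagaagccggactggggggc
MVK: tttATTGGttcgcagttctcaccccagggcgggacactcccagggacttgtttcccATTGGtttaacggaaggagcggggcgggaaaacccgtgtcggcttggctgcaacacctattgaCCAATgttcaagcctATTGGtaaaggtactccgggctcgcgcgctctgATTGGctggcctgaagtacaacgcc
NSDHL: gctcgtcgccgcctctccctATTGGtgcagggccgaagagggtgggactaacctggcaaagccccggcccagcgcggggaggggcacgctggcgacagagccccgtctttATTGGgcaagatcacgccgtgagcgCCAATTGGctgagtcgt
MVD: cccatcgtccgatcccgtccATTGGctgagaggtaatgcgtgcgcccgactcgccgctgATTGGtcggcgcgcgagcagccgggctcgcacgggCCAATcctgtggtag
SREBF2: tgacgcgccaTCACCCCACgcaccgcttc
MSMO1 held 4 CCAAT matches in this stretch, HMGCS1 held 1, MVK 5, NSDHL 4, of which 1 pair overlaps, and MVD 3. Genes that were higher and genes that were lower in the knockout therefore both carried the letters. The stretches of these genes differ in length, from 45 bases (HMGCS1) to 196 (MSMO1), so the counts do not rank the promoters.

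Values are CPM, read counts scaled to the size of each library, and fold changes are fitted by edgeR's quasi-likelihood test over all 19130 genes tested. A gene is called when its Benjamini-Hochberg adjusted p is under 0.05. Libraries held 25.5 to 60.4 M counts, and the lowest count of any of the 35 genes in a library was 53. PRMT6 stood at 22.4, 1.94 and 8.94 CPM in the untreated control, at 29.9, 15.9 and 26.8 CPM in the control with ATRA, and at no more than 0.0587 CPM in any knockout library. Within groups, the chi-square per gene between libraries was 78.1 to 416, except 1.91 between knockout ATRA 1 and 3 and 9.01 between knockout untreated 1 and 2, so the spread within the knockout groups rests partly on near-identical libraries. The 10 fibroblast or stromal markers summed to 449 to 543 CPM in the untreated control and 2248 to 13918 CPM in the untreated knockout, with 270 to 1518 and 2258 to 12428 CPM under ATRA, and each of the 10 had counts in every group. In the untreated knockout 6 were called higher, among them COL3A1 (mean 7601 CPM against 64.2 in the control) and COL1A1 (1598 against 127). PDGFRA was called lower (log2 fold change -1.53). With ATRA 3 were called higher and 0 lower. The 10 pluripotency markers were present in every group, at 3667 to 5509 CPM in the control and 3372 to 5722 CPM in the knockout untreated, and at 2287 to 3835 and 1566 to 2804 CPM with ATRA. Of them SOX2 was called lower in the knockout untreated (-1.80 on the log2 scale) and with ATRA (-1.96), and LIN28B untreated (-1.59). Hepatocyte markers summed to at most 16.4 CPM and adipocyte markers to at most 14.9 CPM. Whether the RNA of the fibroblast or stromal markers came from stromal cells or from the NT2/D1 cells was not tested. Its part in the results below was not tested either. In such bulk RNA, fewer cells of a type and less RNA per cell cannot be told apart.

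Levels per kilobase of gene length give the order of the genes in the untreated control. FDFT1, squalene synthase, led with 156 CPM per kb, followed by FASN, fatty acid synthase (138), FDPS, farnesyl diphosphate synthase (129), SCD, the stearoyl-CoA desaturase (128), and DHCR7, the last reductase of the cholesterol route (106). SREBF2 stood at 59.7 CPM per kb against 14.5 for SREBF1, and INSIG1 at 48.2 against 2.22 for INSIG2. CYP51A1, lanosterol demethylase, was lowest at 0.924 CPM per kb, with 84 to 235 counts per library. In GENCODE v44, 18 of the 35 genes share exon bases with another gene, and for 7 of these that neighbour has at least 1000 counts in the table: ACAT2, CYP51A1, FADS1, FADS2, MVK, SREBF1 and TM7SF2. The strand setting of the counting is not given in the sources used here. TM7SF2 and FADS2 also have such a neighbour on the same strand (VPS51 and FEN1). Reads of the 7 genes thus cannot be assigned with certainty. The same holds for HSD17B7, which has a near-identical pseudogene. Across the 12 libraries the highest CPM over the lowest ran from 1.46 for SREBF2 to 13.6 for MSMO1.

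**Figure D1:**
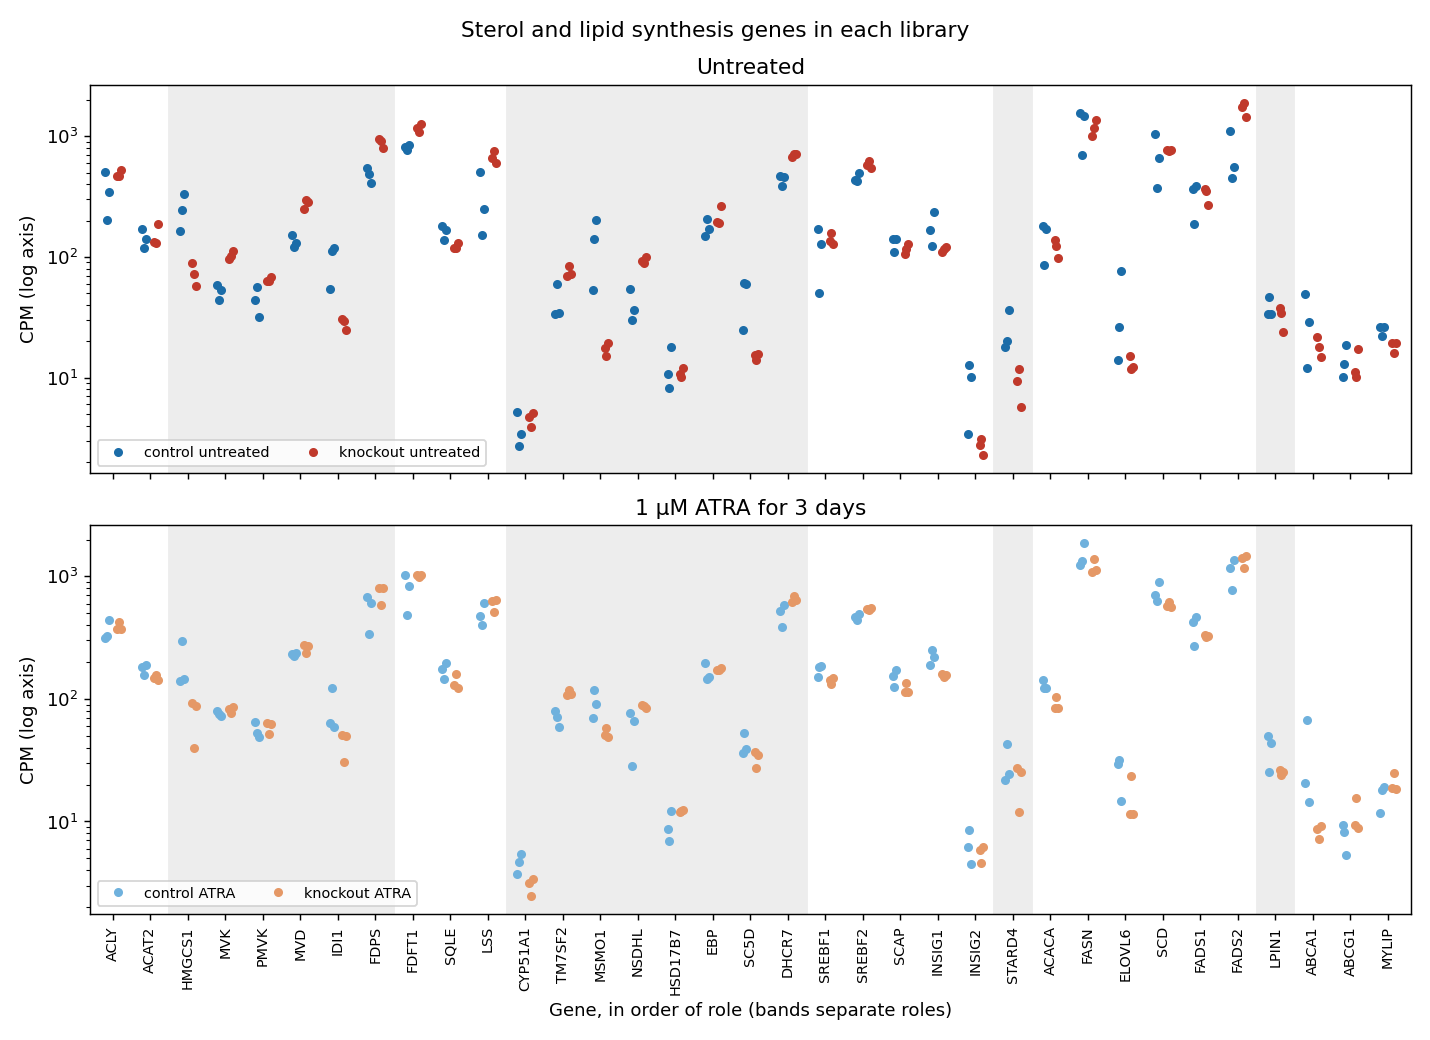
CPM of each of the 35 genes on a log axis, 1 point per library, untreated above and with ATRA below, in order of role with shaded bands separating roles. In the untreated panel MSMO1 lies between 53.5 and 203 CPM in the control and between 15 and 19.5 CPM in the knockout, while MVK and MVD lie higher in every knockout library than in any control library.

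In untreated cells, the knockout had 8 of the 35 genes higher and 7 lower, and both directions occurred within the same stretch of the pathway. MVK, MVD, FDPS, LSS, TM7SF2, NSDHL, DHCR7 and FADS2 rose, by 1.59- to 2.41-fold. HMGCS1, IDI1, MSMO1, SC5D, INSIG2, STARD4 and ELOVL6 fell, by 2.78- to 7.65-fold. The 15 calls are 42.9% of the genes, against 34.9% of all genes tested. The higher calls are 22.9% against 13% of all genes tested, and the lower calls 20% against 21.9%. The median log2 fold change was 0.06 for the 35 genes and -0.11 for all genes tested, and 18 genes lay above 0 and 17 below. Libraries of the groups did not overlap for 20 genes (11 higher, 9 lower), against 47.9% of all genes tested (20.9% higher, 27% lower). An unadjusted p under 0.05 was seen for 19 genes, against 47.3% of all genes tested.

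Acetyl-CoA supply did not pass the test. ACLY, which makes cytosolic acetyl-CoA from citrate, stood between 202 and 527 CPM over all 12 libraries, and ACAT2, which joins pairs of acetyl-CoA, between 118 and 189 CPM. Their log2 fold changes in the untreated knockout were 0.48 ± 0.28 and 0.06 ± 0.20 (SE).

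The mevalonate steps divided, with 3 of 6 genes higher and 2 lower. HMGCS1, which makes HMG-CoA, stood at 163, 245 and 330 CPM in the untreated control and 89.9, 72 and 58 CPM in the untreated knockout. Every knockout library lay below every control library, and the gene fell by 1.75 ± 0.39 (SE) on the log2 scale (edgeR adjusted p = 0.00783). IDI1, which interconverts the isopentenyl units, stood at 54.6, 111 and 118 CPM against 30.6, 29.5 and 24.8 CPM. Its knockout libraries were also all lower (log2 fold change -1.73 ± 0.36, edgeR adjusted p = 0.00594). MVK, mevalonate kinase, stood at 58.2, 44.2 and 53.4 CPM in the control and 97, 101 and 111 CPM in the knockout (log2 fold change 0.99 ± 0.17, edgeR adjusted p = 0.00346). MVD, which decarboxylates mevalonate diphosphate, stood at 151, 121 and 130 CPM against 248, 294 and 285 CPM (log2 fold change 1.04 ± 0.17, edgeR adjusted p = 0.00293). Neither gene had overlapping groups, and both had a small spread within each. FDPS stood at 544, 484 and 409 CPM against 955, 910 and 797 CPM, again without overlap (log2 fold change 0.89 ± 0.26, edgeR adjusted p = 0.0199). PMVK, phosphomevalonate kinase, was not called at 0.56, with 44.3, 56.5 and 31.6 CPM against 63.3, 62.8 and 68.8 CPM.

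Of the genes for squalene and ring closure, LSS, which closes the ring to lanosterol, was called higher. It stood at 505, 153 and 250 CPM in the control and 654, 759 and 604 CPM in the knockout (log2 fold change 1.15 ± 0.35, edgeR adjusted p = 0.0245), and control untreated 1 lay nearest to the knockout. FDFT1, which joins farnesyl diphosphate to squalene, and SQLE, squalene epoxidase, were not called, at 0.53 and -0.41 on the log2 scale, although neither had overlapping groups.

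From lanosterol to cholesterol, 3 of 8 genes rose and 2 fell. MSMO1, which removes the C4 methyl groups of the sterol, stood at 53.5, 141 and 203 CPM in the untreated control and 17.5, 15 and 19.5 CPM in the untreated knockout. All 3 knockout libraries lay well below the lowest control library, and the gene was 7.65-fold lower (log2 fold change -2.93 ± 0.40, edgeR adjusted p = 0.00186), the largest difference among the 35 genes. NSDHL, the dehydrogenase that acts in the same C4 demethylation, stood at 54.7, 30 and 36.2 CPM against 93.2, 89.2 and 100 CPM (log2 fold change 1.23 ± 0.32, edgeR adjusted p = 0.0143). Partners of one demethylation step thus moved in opposite directions. SC5D, the sterol C5 desaturase, stood at 24.7, 61.4 and 60 CPM against 15.4, 14 and 15.7 CPM (log2 fold change -1.70 ± 0.32, edgeR adjusted p = 0.00433). DHCR7, which acts next on its product, stood at 472, 386 and 459 CPM against 668, 717 and 713 CPM (log2 fold change 0.67 ± 0.19, edgeR adjusted p = 0.0186). Neither of these adjacent enzymes had overlapping groups. TM7SF2, a sterol C14 reductase, rose from 33.8, 59.5 and 34.3 CPM to 68.9, 84.8 and 71.8 CPM (log2 fold change 0.82 ± 0.24, edgeR adjusted p = 0.0201). CYP51A1 (0.28), HSD17B7 (-0.16) and EBP, the sterol isomerase (0.30), missed the threshold.

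Among the genes that control SREBP, INSIG2 was the only one of 5 called. It stood at 3.42, 12.7 and 10.2 CPM in the control and 2.78, 3.08 and 2.27 CPM in the knockout, without overlap (log2 fold change -1.69 ± 0.43, edgeR adjusted p = 0.0124). INSIG1, itself an SREBP target, stood at 168, 124 and 236 CPM against 109, 117 and 122 CPM (log2 fold change -0.60 ± 0.23, edgeR adjusted p = 0.0555). SREBF2, whose factor favours cholesterol genes, stood at 433, 424 and 493 CPM against 577, 619 and 549 CPM (log2 fold change 0.37 ± 0.16, edgeR adjusted p = 0.0868). Both missed the threshold, though neither had overlapping groups. SREBF1, whose factors favour fatty acid genes, stood at 171, 50.4 and 129 CPM against 135, 158 and 129 CPM, and SCAP at 141, 110 and 140 CPM against 106, 117 and 128 CPM. Both overlapped between groups, at log2 fold changes of 0.27 (edgeR adjusted p = 0.538) and -0.16 (0.523). Other settings called SREBF2 higher (DESeq2, adjusted p = 0.00609) and INSIG1 lower (edgeR without control untreated 2, 0.0164, and with genes over 1 CPM in at least 3 libraries, 0.0474). SREBF1 moved to -0.09 without control untreated 2.

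STARD4, which carries cholesterol between membranes, stood at 17.9, 20.3 and 36.4 CPM in the control and 9.31, 11.7 and 5.74 CPM in the knockout (log2 fold change -1.47 ± 0.41, edgeR adjusted p = 0.018). Fatty acid synthesis had 1 gene higher and 1 lower of 6. FADS2, the desaturase that starts the synthesis of highly unsaturated fatty acids, stood at 1099, 448 and 557 CPM against 1735, 1898 and 1439 CPM (log2 fold change 1.27 ± 0.32, edgeR adjusted p = 0.012). Its groups did not overlap, and neither did those of STARD4. ELOVL6, which elongates palmitate, stood at 14.1, 26.3 and 76.3 CPM against 15.1, 11.8 and 12.2 CPM (log2 fold change -1.58 ± 0.54, edgeR adjusted p = 0.0377). It is the called gene whose groups overlapped, and control untreated 3 was far above the other control libraries. On the log2 scale ACACA (-0.28), FASN (-0.08), SCD (0.14) and FADS1 (0.07) stayed uncalled. LPIN1, a phosphatidate phosphatase of glycerolipid synthesis, was not called either, at -0.24.

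The LXR-linked genes were not called in untreated cells. ABCA1, the sterol and phospholipid exporter, stood at 49.2, 12 and 29 CPM in the control and 21.6, 17.9 and 14.7 CPM in the knockout (log2 fold change -0.73 ± 0.55, edgeR adjusted p = 0.309). ABCG1 stood at 10.2, 12.9 and 18.5 CPM against 11.1, 10.1 and 17.3 CPM (-0.11, edgeR adjusted p = 0.814). MYLIP, which marks lipoprotein receptors for degradation, stood at 26.3, 22.1 and 26.2 CPM against 19.3, 16 and 19.3 CPM, without overlap (-0.45 ± 0.24, edgeR adjusted p = 0.159). ABCG1 took the other sign without control untreated 3 (0.14) or knockout untreated 2 (0.04).

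**Figure D2:**
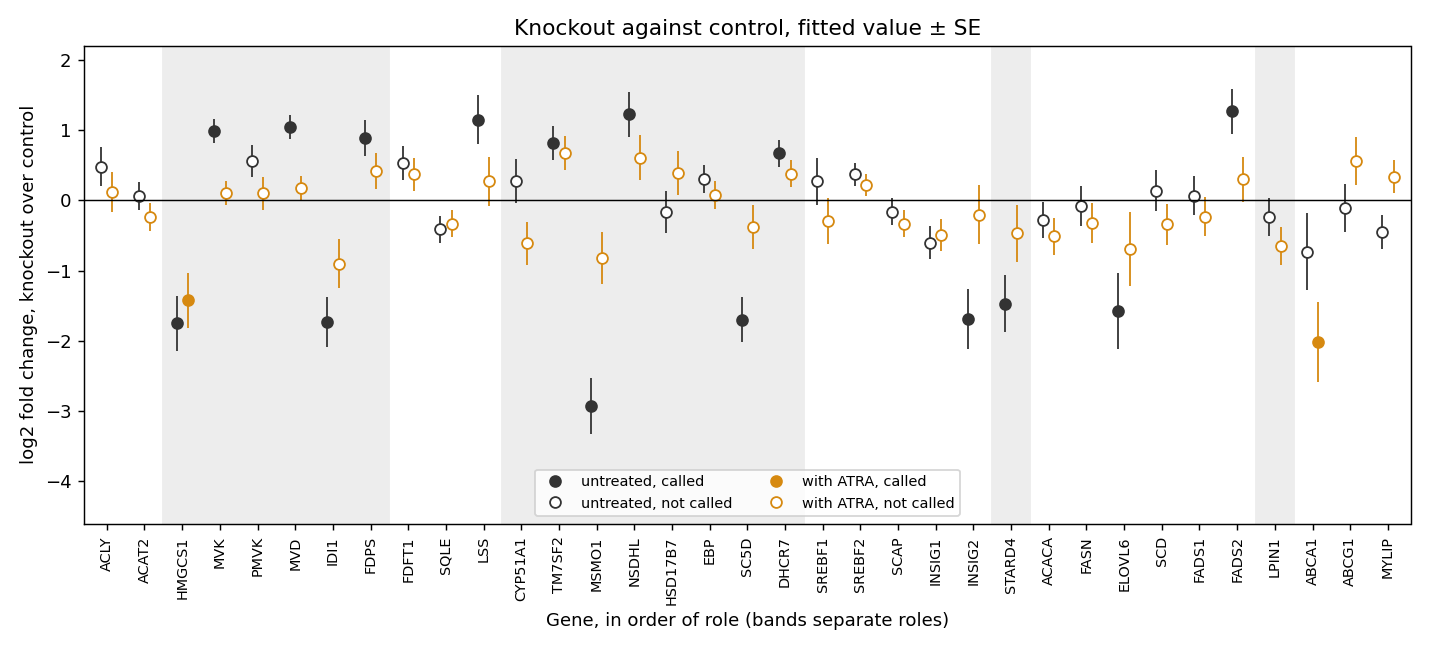
Fitted log2 fold change of knockout over control with its SE for each gene, black untreated and orange with ATRA, filled where called at an edgeR adjusted p under 0.05. Untreated values run from -2.93 (MSMO1) to 1.27 (FADS2), and with ATRA only HMGCS1 and ABCA1 are filled.

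MVK, MVD, IDI1 and MSMO1 were called under all 16 alternatives run for the untreated comparison, and HMGCS1 and SC5D under 15 of 16. Without control untreated 3 the count fell from 15 to 8 (18.1% of all genes), and FDPS (edgeR adjusted p = 0.0765), LSS (0.091), TM7SF2 (0.0837), NSDHL (0.0563), STARD4 (0.0845), ELOVL6 (0.29) and FADS2 (0.0521) were no longer called. Without knockout untreated 2, calls were lost for FDPS (edgeR adjusted p = 0.0629), LSS (0.0807), TM7SF2 (0.0791), DHCR7 (0.0647) and ELOVL6 (0.115). Without knockout untreated 1 they were lost for FDPS (edgeR adjusted p = 0.0635), LSS (0.0582), STARD4 (0.0553) and ELOVL6 (0.0798). Leaving out knockout untreated 3 ended those of STARD4 (edgeR adjusted p = 0.0656) and ELOVL6 (0.0969), and leaving out control untreated 2 that of LSS (0.0526). The count was 9 (22.7% of all genes) without knockout untreated 3 and knockout ATRA 2, the libraries outside the near-identical pairs. It was 5 (MVK, MVD, IDI1, MSMO1 and SC5D; 5.42% of all genes) with each near-identical pair summed to 1 library.

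The genes that rose and the genes that fell also differed in base composition. The 7 called lower had a GC content of 34.4% to 41.4% in their longest transcript, and the 8 called higher 49.6% to 64.2%. Across the 35 genes the rank correlation of the log2 fold change with GC content was 0.742, and it was 0.455 across 16377 genes tested, as descriptions over genes that share the same libraries. Split at 48.8% GC, the median of all genes tested, 7 of the 17 genes of the set at or under it were called lower (41.2%), against 41.3% of 8193 genes of any kind. Of the 18 over it, 8 were called higher (44.4%), against 21.9% of 8184. GC content also moved with genotype over the libraries: the rank correlation of a library's expression, relative to all libraries, with GC was -0.227 to -0.4 in control libraries except 0.0976 in control ATRA 3, and 0.136 to 0.508 in knockout libraries.

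**Figure D3:**
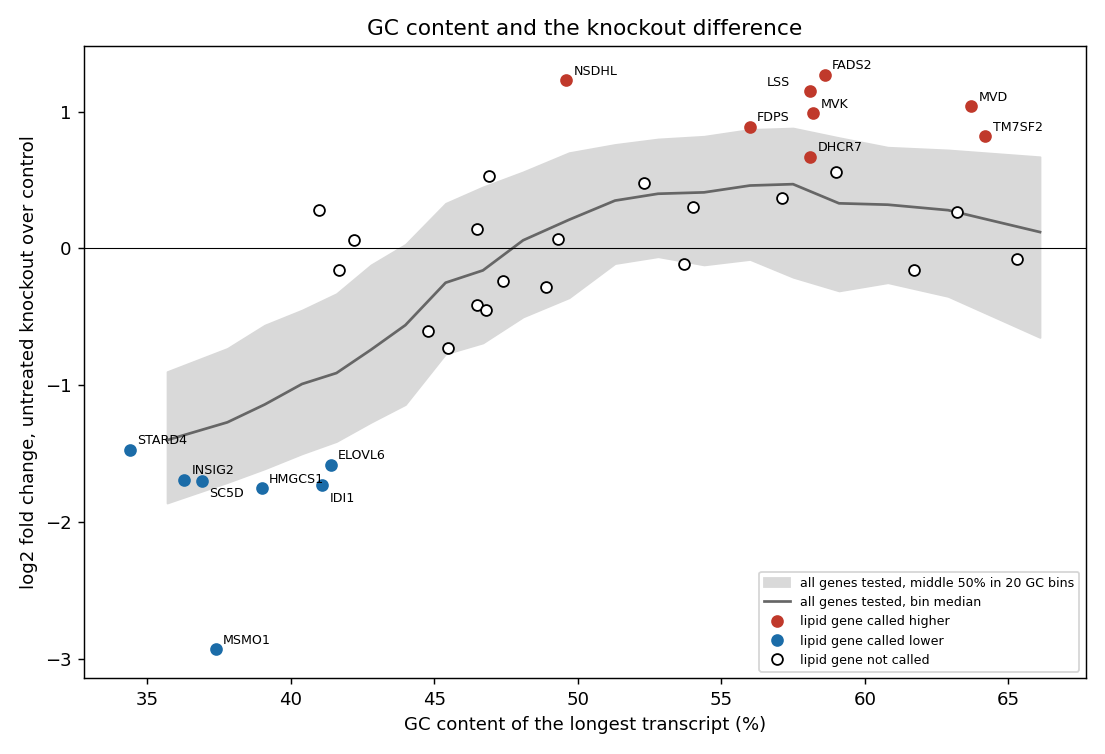
Log2 fold change of untreated knockout over control against GC content of the longest transcript, with the 35 genes as points and all genes tested as a line (median of 20 GC bins) and a grey band (middle 50%). Called genes of the set stand at 34.4% to 41.4% GC when lower and at 49.6% to 64.2% when higher, and MSMO1 lies far under the band.

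With each library's GC trend removed as an offset, 7 of the 15 calls were made again and no other gene was called. MVK (0.68), MVD (0.84), NSDHL (1.04) and FADS2 (0.97) were called higher on the log2 scale, and HMGCS1 (-0.83), IDI1 (-0.99) and MSMO1 (-1.84) lower. MSMO1 kept the lowest edgeR adjusted p of the set under this setting (0.00587). The difference in SC5D moved from -1.70 to -0.61 (edgeR adjusted p = 0.0598), in INSIG2 from -1.69 to -0.54 (0.187), in STARD4 from -1.47 to -0.37 (0.424) and in SREBF2 from 0.37 to 0.01 (0.964). Over all genes, calls went from 6676 to 3654 (19.1%). After this removal the rank correlation of the log2 fold change with GC content was still 0.52 across the 35 genes. Across all genes tested with a GC content it was 0.097. The genes of the set still called higher had 49.6% to 63.7% GC, and those still called lower 37.4% to 41.1%.

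With ATRA, fewer of these genes differed between knockout and control by the test. HMGCS1 and ABCA1 were called by edgeR, both lower, and 0 were called higher. These 2 calls are 5.71% of the genes, against 7.51% of all genes tested (3.27% higher, 4.24% lower), and 7 of the 35 had an unadjusted p under 0.05, against 28.1%. DESeq2 called 3 (15.5% of all genes), these 2 and TM7SF2, which it called higher (0.73, DESeq2 adjusted p = 0.0368). HMGCS1 stood at 141, 298 and 146 CPM in the control and 92.3, 39.5 and 87.3 CPM in the knockout (log2 fold change -1.42 ± 0.39, edgeR adjusted p = 0.0457). ABCA1 stood at 20.7, 67.1 and 14.3 CPM against 8.72, 7.25 and 9.2 CPM (log2 fold change -2.02 ± 0.57, edgeR adjusted p = 0.0494). Neither gene had overlapping groups, and in both control ATRA 2 was the highest library by a wide gap. Without control ATRA 2 neither was called, at -0.98 for HMGCS1 (edgeR adjusted p = 0.17) and -1.06 for ABCA1 (0.222). Leaving out any knockout ATRA library also ended both calls (edgeR adjusted p = 0.104 to 0.122 for HMGCS1 and 0.123 to 0.152 for ABCA1), as did leaving out control ATRA 1 (0.0503 and 0.0527). Calls over all genes fell too, from 1437 to 632 without control ATRA 2 and 972 without control ATRA 1. They fell to 241, 831 and 219 without knockout ATRA 1, 2 and 3. Without control ATRA 3 they rose to 2077, and both genes stayed called.

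MVK, MVD, IDI1 and MSMO1, called under every alternative in untreated cells, had smaller differences under ATRA. The interaction given further on did not call that change. These genes were picked by their untreated values, so smaller values in another comparison can follow from that choice. MSMO1 was at 70, 119 and 90.8 CPM in the control and 50.9, 58.3 and 49 CPM in the knockout, still without overlap (log2 fold change -0.82 ± 0.37, edgeR adjusted p = 0.172). IDI1 was at 63.2, 124 and 58.9 CPM against 51.2, 30.4 and 50.3 CPM, also without overlap (-0.90 ± 0.35, edgeR adjusted p = 0.12). MVK was at 79.9, 75.8 and 72.9 CPM against 82.7, 77 and 85.6 CPM (0.10 ± 0.17, edgeR adjusted p = 0.734). The MVK groups overlapped, unlike in untreated cells. MVD was at 232, 223 and 238 CPM against 275, 239 and 273 CPM (0.18 ± 0.17, edgeR adjusted p = 0.509), and SC5D at 36.3, 52.8 and 38.8 CPM against 36.6, 27.4 and 34.6 CPM (-0.38 ± 0.31, edgeR adjusted p = 0.448). TM7SF2 had 79, 71.3 and 59 CPM against 107, 119 and 110 CPM, all knockout libraries higher, at an edgeR adjusted p of 0.0887. Of the 35 genes, 14 had groups without overlap (5 higher, 9 lower), against 34.6% of all genes tested (16.7% higher, 17.9% lower).

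The SREBP regulators were not called with ATRA. INSIG1 stood at 188, 252 and 220 CPM in the control and 161, 152 and 157 CPM in the knockout (log2 fold change -0.49 ± 0.23, edgeR adjusted p = 0.177), with all knockout libraries lower. SREBF2 stood at 470, 437 and 489 CPM against 541, 529 and 551 CPM, with all knockout libraries higher (0.22 ± 0.16, edgeR adjusted p = 0.397), and SREBF1 at 150, 181 and 186 CPM against 142, 132 and 149 CPM, with all lower (-0.29 ± 0.33, edgeR adjusted p = 0.591). INSIG2 at 6.18, 8.5 and 4.49 CPM against 5.88, 4.58 and 6.23 CPM overlapped (-0.20 ± 0.42), as did SCAP at 155, 126 and 173 CPM against 113, 135 and 115 CPM (-0.33 ± 0.19). In the order of roles, the medians of the log2 fold change were -0.06 for acetyl-CoA supply, 0.10 for the mevalonate steps, 0.27 for squalene and ring closure, 0.23 for lanosterol to cholesterol and -0.33 for fatty acid synthesis, against -0.06 over all genes tested. ABCG1 and MYLIP were at 0.56 and 0.34 on the log2 scale, with edgeR adjusted p of 0.311 and 0.384.

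**Figure D4:**
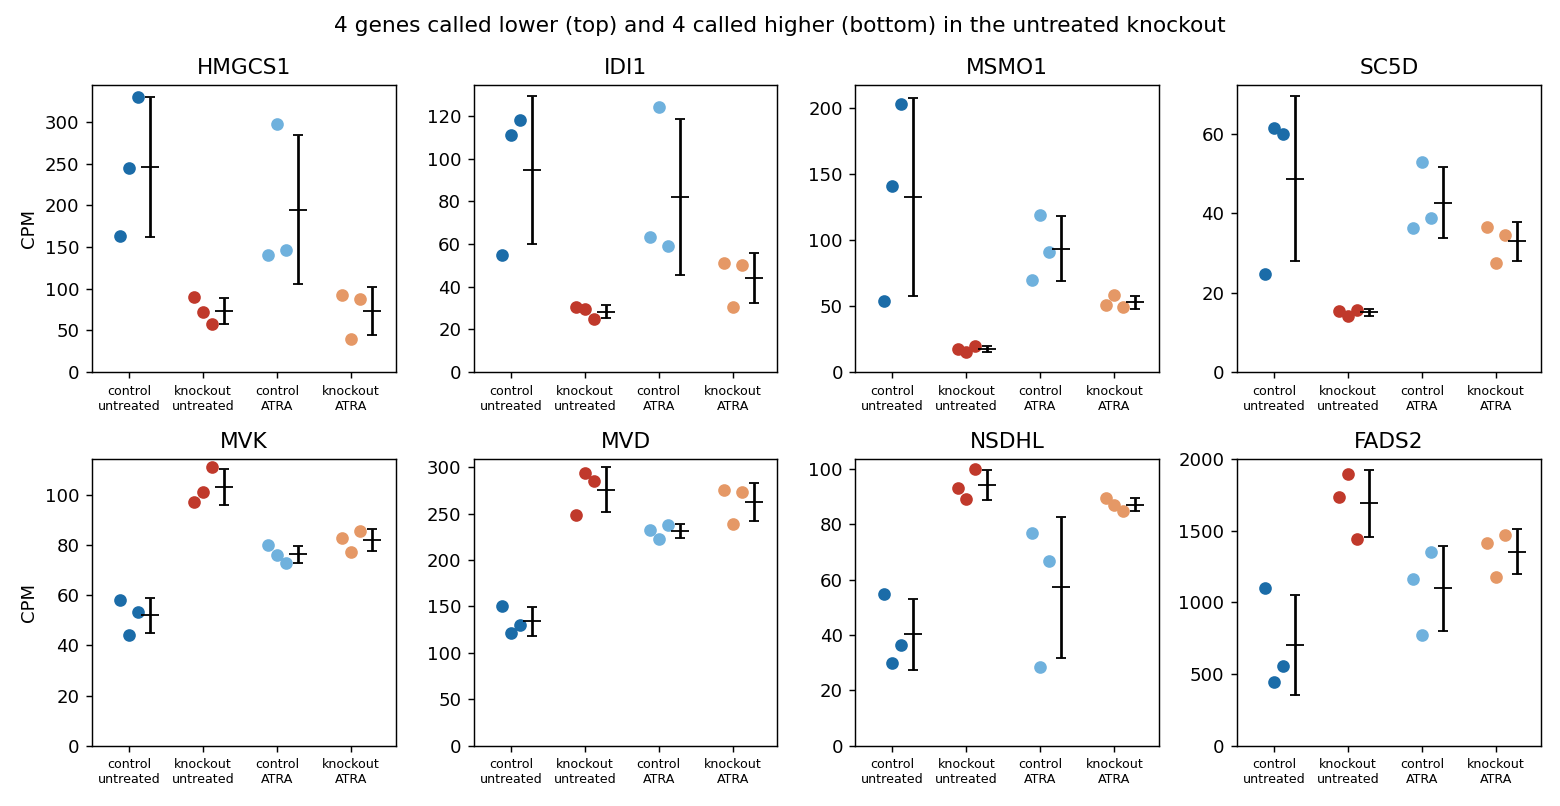
CPM of 8 genes in each library (points) with mean and SD per group (bars), n = 3, each axis starting at 0. MSMO1 stands at 17.3 CPM on average in the untreated knockout and at 52.7 CPM in the knockout with ATRA, while MVK and MVD are lowest in the untreated control.

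No gene of the set was called by edgeR for ATRA against untreated cells in either genotype. In the control 0 of 35 were called, against 0.115% of all genes tested, with 5 at an unadjusted p under 0.05 (20.7% of all genes tested), and DESeq2 called 2, MVK and MVD, and 8.5% of all genes. MVD had mean levels of 134 CPM untreated and 231 CPM with ATRA, and every ATRA library lay above every untreated one (log2 fold change 0.79 ± 0.17, edgeR adjusted p = 0.0599, DESeq2 adjusted p = 0.000315). MVK had 51.9 and 76.2 CPM, also without overlap (0.55 ± 0.17, edgeR adjusted p = 0.111, DESeq2 adjusted p = 0.0173). Without control untreated 1, edgeR called 5 genes (12.4% of all genes), among them MVD (adjusted p = 0.016) and MVK (0.0402), and without control ATRA 2 it called 2 (12.3% of all genes), among them MVD (0.0173). Groups without overlap numbered 4 of 35, 2 in each direction, against 14.8% of all genes tested (7.39% higher, 7.44% lower). In this comparison ABCG1 and MYLIP were the genes whose ATRA libraries all lay lower (-0.86 and -0.60, edgeR adjusted p = 0.186 and 0.184).

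In the knockout 0 of 35 were called by edgeR, against 0.0314% of all genes tested, with 5 at an unadjusted p under 0.05 (11.7% of all genes tested). DESeq2 called 2, MSMO1 and SC5D, and 3.19% of all genes. MSMO1 went from 17.5, 15 and 19.5 CPM untreated to 50.9, 58.3 and 49 CPM with ATRA, values that lie far apart (log2 fold change 1.60 ± 0.38, edgeR adjusted p = 0.125, DESeq2 adjusted p = 0.00653). SC5D had means of 15 and 32.9 CPM (1.13 ± 0.31, edgeR adjusted p = 0.171, DESeq2 adjusted p = 0.0344), STARD4 8.93 and 21.4 CPM (1.26 ± 0.41, edgeR adjusted p = 0.235) and INSIG2 2.71 and 5.56 CPM (1.04 ± 0.43, edgeR adjusted p = 0.365). All 4 were among the 7 genes called lower in the untreated knockout, and for all 4 the ATRA libraries lay above the untreated ones. The others called lower there, HMGCS1 (-0.01), IDI1 (0.63) and ELOVL6 (0.26), had overlapping groups in this comparison. The 4 genes were named after their values were seen. Their low untreated libraries are also the baseline here, so a rise can follow from that choice. The 4 have 34.4% to 37.4% GC, and HMGCS1, IDI1 and ELOVL6 have 39% to 41.4%. With the GC trend removed, the log2 fold changes were 1.29 (MSMO1), 0.75 (SC5D), 0.72 (STARD4) and 0.63 (INSIG2), and none was called. A fit of the knockout libraries alone called 7 genes, 5 higher and 2 lower, where 7.6% of all genes passed in that fit, with MSMO1 at an edgeR adjusted p of 0.00672, SC5D at 0.0141 and INSIG2 at 0.0373. In all, 13 of 35 genes had groups without overlap (6 higher, 7 lower), against 31.9% of all genes tested (17.2% higher, 14.7% lower).

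The difference between the genotypes in their ATRA response was tested as an interaction, which called 0 of the 35 genes and 0 of all 19130 by edgeR. An unadjusted p under 0.05 was seen for 6 of the 35 genes (9.76% of all genes tested), and DESeq2 also called 0 (0.0763% of all genes). MSMO1 had the largest value, 2.11 ± 0.53 on the log2 scale (edgeR adjusted p = 0.509), and MVK and MVD had -0.89 ± 0.24 and -0.86 ± 0.24 (both 0.509). Without control untreated 1, MSMO1 (2.48, edgeR adjusted p = 0.0266) and SC5D (1.63, 0.0449) were called, with 0.684% of all genes. The same untreated and ATRA libraries enter these comparisons, so their values for a gene are not independent of each other.

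Other genes of these pathways, 86 in 6 lists of which 84 were tested, had 7 called higher (8.33%, against 13% of all genes tested) and 21 lower (25%, against 21.9%) in the untreated knockout, with a median log2 fold change of -0.19. Among genes of SREBP processing and turnover, MBTPS1 rose by 0.76 on the log2 scale, and MBTPS2 (-1.38), RNF139 (-2.22) and ERLIN1 were lower. MBTPS1 and MBTPS2 encode the proteases that cut SREBP in sequence, and they moved in opposite directions, at 51.1% and 35.9% GC. Of 15 genes of sterol uptake, movement and esterification 4 fell, among them SOAT1, which esterifies cholesterol (-1.12). Other isoprenoid branches had 1 of 11 higher and 5 lower, including GGPS1, which makes geranylgeranyl diphosphate (-1.54), and RABGGTB, a subunit of Rab prenyltransferase (-2.22). Other fatty acid and glycerolipid synthesis had 2 of 24 higher and 6 lower, with the elongases ELOVL1 at 0.96 and ELOVL5 at -1.56. Fatty acid oxidation had 1 of 16 higher and 2 lower, and LXR and its partners 1 of 7 higher (RXRB, 1.03) and 1 lower (ABCG4, -1.67). With ATRA, where 3.27% of all genes tested were called higher and 4.24% lower, 2 of the 84 were called higher, CYP27A1 (1.63) and RXRB (1.05), and 4 lower (ERLIN1, SOAT2, ELOVL5 and ACSL4).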

How the data were processed

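A stranded mRNA kit was used for the NT2/D1 libraries, per the labels' protocols. Raw counts and a length for each gene make up the table that the authors deposited, and the authors' steps used bcl2fastq, TopHat2, Subread, featureCounts and DESeq2 on hg19 or GRCh37, per the submitters' processing notes. The sources used here do not give strand setting, versions or annotation. The gene length, another deposited value, served only for levels per kilobase.

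Genes were kept by edgeR's filterByExpr (minimum count 10), which left 19130. Libraries were scaled by TMM, and edgeR 4.0.16 (R 4.3.3) fitted its quasi-likelihood model to the 12 libraries together, each group having its own coefficient. The biological coefficient of variation was 0.367. Benjamini-Hochberg adjustment ran over every gene tested. The steps were tested on simulated data for the untreated knockout comparison. There edgeR recovered 44.9% of 4-fold and 5.1% of 2-fold changes, with 4 false calls among 18725 genes. DESeq2 recovered 69.4% and 16.3%, with 39 false calls. A gene that is not called can thus still differ. The simulation held 98 genes with each fold change, while 6676 genes were called in the untreated comparison. The adjustment depends on how many genes change, so the recovery rates need not hold for that comparison.

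The genes, lists and tests were chosen with earlier results of these data known. Some results of the pathway lists are not reported here. Genes called in a knockout comparison, SREBP regulators and LXR-linked genes are given with their library values, the 12 with the lowest adjusted p first by rule, LSS, TM7SF2 and ELOVL6 after their values were seen, as were genes named for the ATRA response.

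Alternatives were RLE scaling, DESeq2 1.42.0, limma-voom (limma 3.58.1), other filters, the compared groups alone, a replicate block, leaving out libraries and summing near-identical ones. Removal of each library's GC trend (loess, span 0.3) was added after seeing the data. GC content came from GENCODE v44 (GRCh38, not the build used for counting) and was matched by symbol for 85.6% of genes tested and all 35. Promoters and their coordinates are RefSeq GRCh38.p14.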

Additional observations from a re-analysis of the deposited data

How the results depend on the processing

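The count of genes called in the untreated knockout, 15, was 9 without knockout untreated 3 and knockout ATRA 2, 5 with the near-identical knockout libraries summed and 7 with the GC trend removed. It ranged from 8 to 16 when 1 library was left out. Over all genes, the 6676 calls became 1072 with the pairs summed, 3654 without the GC trend and 3058 to 8453 when 1 library was left out. With ATRA, the 2 calls became 3 under DESeq2 (1 higher, 2 lower), 1 under RLE scaling and without the GC trend, and 0 under limma-voom, with the compared groups only, with the replicate block, with the pairs summed and without knockout untreated 3 and knockout ATRA 2, and 0 to 2 when 1 library was left out. The 1437 calls over all genes became 2964 under DESeq2, 1425 under RLE scaling, 1353 without the GC trend and 1015 under limma-voom. They became 768 with the compared groups only, 761 with the replicate block and 71 with the pairs summed. Without knockout untreated 3 and knockout ATRA 2 they were 881, and 219 to 2077 when 1 library was left out. For ATRA against untreated in the control, 0 became 2 under DESeq2 and 0 to 5 when 1 library was left out. In the knockout it became 2 under DESeq2, 1 with no filter (MSMO1) and 7 with the compared groups only, and stayed at 0 when 1 library was left out. The 6 calls over all genes in the knockout became 561, 272 and 1336 under these settings, and 0 when 1 library was left out. The interaction count was 0 to 2 when 1 library was left out. Among called genes, regulators and LXR-linked genes, signs reversed in uncalled values for SREBF1 untreated (-0.09 without control untreated 2, in a range to 0.66 with 1 library left out), ABCG1 untreated (0.14 without control untreated 3, 0.04 without knockout untreated 2 and 0.01 with the pairs summed, down to -0.39 without knockout untreated 3) and INSIG2 with ATRA (0.06 without control ATRA 2 and 0.27 without the GC trend, down to -0.37 without control ATRA 3). Over all 35 genes, 8 untreated and 7 with ATRA took the other sign under at least 1 setting, none of them called. Under GC removal these were HSD17B7 (0.51), EBP (-0.11) and FADS1 (-0.10) untreated, and ACLY (-0.08), ACAT2 (0.03), MVK (-0.03), PMVK (-0.01), EBP (-0.11), SC5D (0.04) and INSIG2 with ATRA. FASN untreated changed sign under RLE scaling and DESeq2. The cause was not tested.

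Replicate numbers are shared between groups, but in none of the 4 comparisons did all 3 same-numbered pairs deviate together. Their correlations ran from -0.0869 to 0.00556 between knockout and control untreated, from -0.134 to -0.0579 with ATRA, from -0.275 to 0.323 between ATRA and untreated control and from -0.639 to 0.579 in the knockout. In none did every library correlate best with its own number. With the number as a replicate block, 14 genes were called untreated (8 higher, 6 lower) and 0 in the other comparisons. Precision is limited by 3 libraries per group and by the near-identical knockout pairs. INSIG2 and CYP51A1 rest on the lowest counts.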

Other observations

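Single libraries often held the extreme value of these genes. Control untreated 2 held the lowest of the 12 values for 12 of the 35 genes, against 19.1% of all genes tested, and control ATRA 3 the highest for 7, against 5.93%. Knockout untreated 3 held the highest for 6 genes (10.7% of all genes tested) and knockout ATRA 1 and 3 for 0. The steroid-making cell markers, 5 genes, summed to 33 to 42.7 CPM in the untreated control and 12.6 to 17.9 CPM in the untreated knockout, and to 25.8 to 32.3 and 18.8 to 23.6 CPM with ATRA. STAR, which moves cholesterol into mitochondria for steroid synthesis, fell from 28.5 to 12.2 CPM in the untreated knockout (log2 fold change -1.22 ± 0.30, edgeR adjusted p = 0.0106), and CYP11A1, which cleaves its side chain, from 10.3 to 2.95 CPM (-1.81 ± 0.55, edgeR adjusted p = 0.0243).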
